A study of Mus musculus with 8 samples.

Results

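The genes described here encode the Sin3 histone deacetylase complex. They were Sin3a, Sin3b, Hdac1, Hdac2, Sap30, Sap18, Sap130, Ing1, Ing2 and Suds3, and the array probes were chosen by an exact match of the gene name in the scanner files. Of these 10 genes, 9 had a probe, with 19 probes in all, among 19020 genes tested. Suds3 had no probe of that name, and 2 probes with an older clone name that RefSeq assigns to Suds3 are described apart from the counts. The group was drawn up with the enrichment of Sap30 in the GFP IP over the mock IP already known, so the differences between the IPs and the mock IP are given as a description without p-values, and Sap30 is given no p-value in any comparison. Where a call, its loss or an interval is named for these below, it describes the fit and is not a test of the members.

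The Sin3 complex is a co-repressor that removes acetyl groups from histones near genes. SIN3A and SIN3B are alternative scaffolds without enzymatic activity, HDAC1 and HDAC2 are the catalytic deacetylases, and SAP30, SAP18, SAP130 and SUDS3 are accessory subunits that stabilise the complex or link it to other factors. ING1 and ING2 carry a PHD finger that binds methylated histone tails and so bring the complex to chromatin. In mouse embryonic stem cells SIN3A is required for growth. DAZL is a germ cell RNA-binding protein that binds mRNAs and controls their translation, so the measurement here is of the mRNAs of these genes and not of the proteins.

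The RNA came from primordial germ cells that had been differentiated in vitro. The embryonic stem cells they came from derive from the V6.5 line (C57BL/6 129SV mixed) and carry Dazl-GFP-V5, a tagged DAZL. Feeder cells had been removed by plating, and the cells were then kept on gelatin in Differentiation Medium for 12 days. All groups share this line, tag and treatment. The groups were total input RNA without an antibody, a mock IP with normal mouse IgG, a V5 IP with an anti-V5 antibody and a GFP IP with an anti-GFP antibody, each on 2 arrays. Lysates were not crosslinked. The promoter of the tagged gene, and whether the line is a single clone, are not given in the sources used here. Nor do these say whether replicates were separate cultures, so the p-values measure only the spread between these arrays.

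Levels are log2 scanner signals minus the 75th percentile of the same array, so a level of 0 is the 75th percentile, and a level is read within a probe only. Between 61.3% and 70.5% of gene probes were well above background on each array. The correlation of the 2 arrays of a group was 0.993 for the input and 0.977 to 0.984 for the IPs. Replicate 1 of every group lay on one slide and replicate 2 on another, and each group kept its position on both slides, so position and group cannot be told apart. All 12 germ cell markers on the arrays were well above background in both input arrays, as were 5 of 5 fibroblast or feeder markers, 4 of 5 endoderm, 4 of 4 neuroectoderm, 4 of 5 mesoderm and heart, and 4 of 5 blood and endothelium markers; Ttr, Mixl1 and Hba-x were not. The summed linear level of the fibroblast markers, in units of the 75th percentile, was 11.2 to 13.1 in the input, 11.4 to 25.1 in the mock IP, 6.24 to 7.79 in the V5 IP and 6.03 to 7.03 in the GFP IP. The summed germ cell markers were 104.1 to 112.2, 83.7 to 113.9, 138.7 to 211.3 and 155.7 to 220.9 in the same order. Within the germ cell list 7 markers had a higher and 5 (Nanos3, Pou5f1, Ddx4, Ifitm3 and Alpl) a lower mean in the tag IPs than in the input. The sums of the neuroectoderm markers (3.70 to 5.54 in the input, 9.45 to 20.4 in the tag IPs) and of the blood and endothelium markers (0.831 to 1.02 and 1.91 to 4.73) were higher in the tag IPs, led by Tubb3 and Pecam1, while the medians of these lists moved little. Those of the endoderm (1.68 to 2.54 and 0.996 to 1.36) and of the mesoderm and heart markers (4.57 to 6.10 and 2.88 to 4.62) were lower. The part of any of these in the results below was not tested. The sums in the IPs are of RNA recovered with an antibody, so they do not measure how many cells of a type were present. In the input, a bulk sample, the number of cells of a type and the RNA per cell cannot be told apart.

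Sap30 was the member with the highest IP signal relative to the mock IP. SAP30 is the accessory subunit that joins the SIN3 scaffold to the deacetylases and binds DNA. Its single probe read 2.95 and 2.46 in input replicates 1 and 2, 1.99 and 1.23 in the mock IP, 5.42 and 4.38 in the V5 IP, and 5.59 and 4.59 in the GFP IP. All 4 IP arrays with an antibody to the tag lay above both input arrays, and both mock arrays lay below them.

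Relative to the mock IP, Sap30 was 9.77-fold higher in the V5 IP (log2 difference 3.29 ± 0.48, SE) and 11.2-fold higher in the GFP IP (3.48 ± 0.48). These differences ranked 28 and 14 among all 19020 genes. They were 3.42 and 3.15 on slides 1 and 2 for the V5 IP, and 3.60 and 3.36 for the GFP IP. Over 16 alternative treatments of the data the differences ranged from 2.77 to 3.80 and from 2.98 to 3.98. Against the input Sap30 was 4.57-fold higher in the V5 IP (2.19) and 5.22-fold higher in the GFP IP (2.38). The mock IP differed from the input by -1.10 (95% interval -2.22 to 0.03), with -0.96 and -1.235 on slides 1 and 2. This difference did not pass at the main setting but passed as lower with the slide as a block. Sap30 no longer passed against input without input replicate 2 (1.95 in the V5 IP, 2.14 in the GFP IP) or replicate 1 of the IP (1.68 and 1.89), and in the V5 IP also without input replicate 1 (2.43). The gene has no other probe on the array against which to set these values.

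**Figure D1:**
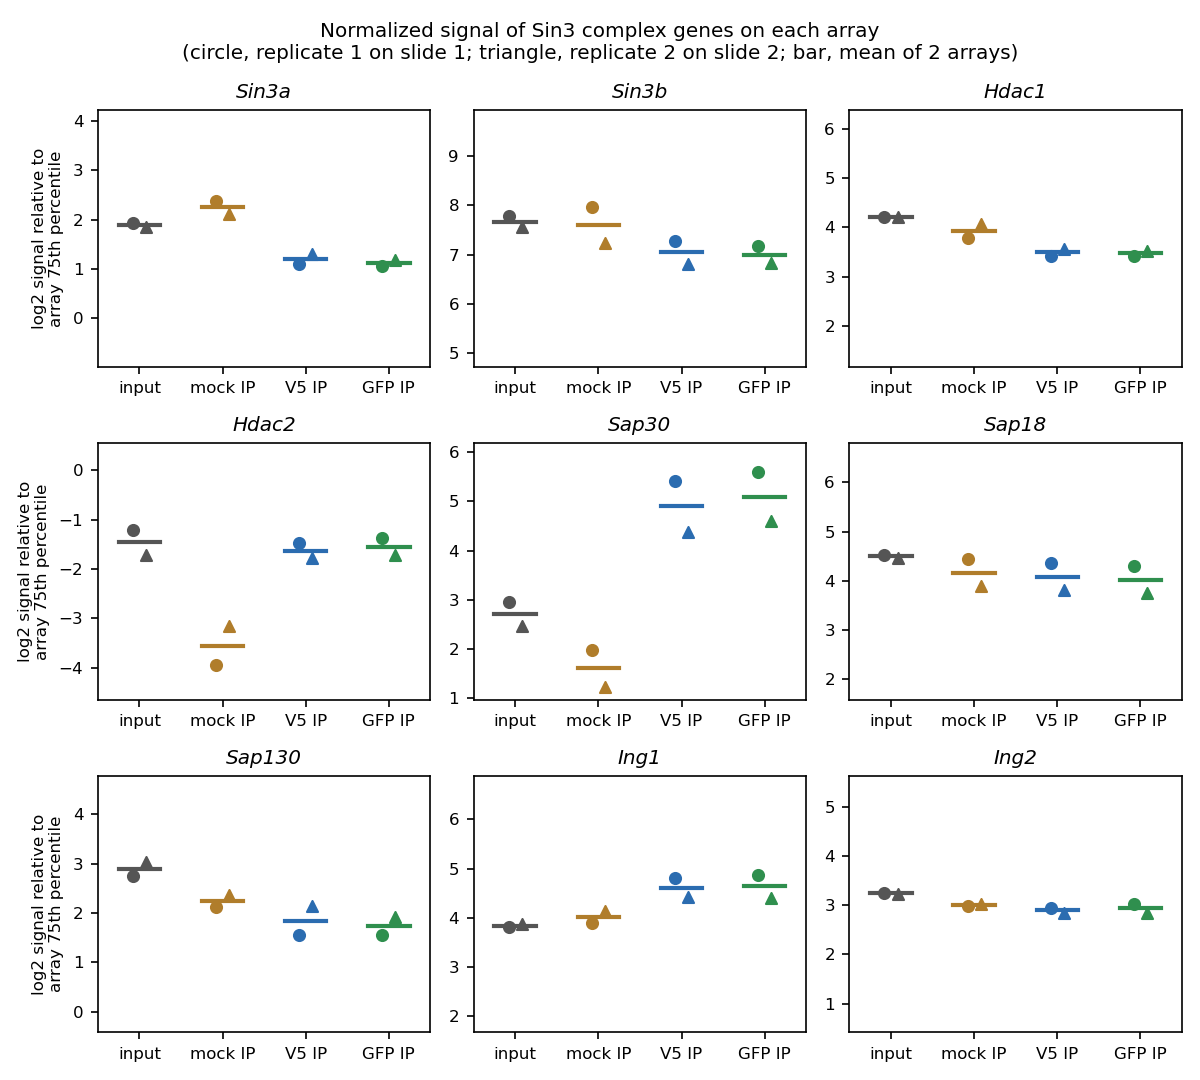
Level of each gene on each array, as the log2 signal of its brightest kept probe relative to the array's 75th percentile; circles are replicate 1 (slide 1), triangles replicate 2 (slide 2), and bars the mean of 2 arrays. Each panel spans the same number of log2 units. Sap30 rises from 1.23 to 1.99 in the mock IP to 4.38 to 5.59 in the tag IPs, while Hdac2 is lowest in the mock IP and near its input level in the tag IPs.

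Hdac2 showed another pattern: its tag IPs stood above the mock IP but not above the input. Its probe read -1.21 and -1.71 in the input, -3.95 and -3.16 in the mock IP, -1.47 and -1.79 in the V5 IP, and -1.38 and -1.72 in the GFP IP. Only the mock arrays stood apart, and the input and tag IP arrays overlapped. The V5 IP was 3.81-fold above the mock IP (1.93 ± 0.34) and the GFP IP 4.01-fold (2.005 ± 0.34). Against the input the log2 differences were -0.16 ± 0.34 (adjusted p = 0.753) and -0.09 ± 0.34 (adjusted p = 0.865). The 95% intervals of these differences reached from -0.96 to 0.63 and from -0.88 to 0.70.

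The mock IP was lower than the input for Hdac2 by a log2 difference of -2.10 ± 0.34 (adjusted p = 0.0228), with -2.74 on slide 1 and -1.45 on slide 2. This call did not hold without input replicate 1 (-1.84), input replicate 2 (-2.35) or mock replicate 1 (-1.70), nor with normexp background correction (-1.15). It was also lost without the filter on dim probes and with only the 2 groups compared in the fit (-2.10 in both). This Hdac2 probe is among the dimmer of the members' probes, and the gene's other probe was not well above background on any of the 8 arrays. The V5 IP call against the mock IP was lost without mock replicate 1 (1.54) or V5 replicate 1 (1.77). With normexp, the V5 IP difference from the mock IP was 0.79 and that of the GFP IP 1.10, and neither call held.

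Hdac1, the other deacetylase of the complex, did not share this pattern. It read 4.21 on both input arrays, 3.77 and 4.06 in the mock IP, 3.43 and 3.57 in the V5 IP, and 3.43 and 3.52 in the GFP IP. Both tag IPs lay below the mock and input arrays without overlap. The difference from the input was -0.71 ± 0.23 in the V5 IP (adjusted p = 0.0511) and -0.74 ± 0.23 in the GFP IP (adjusted p = 0.0411). The GFP IP call did not hold without any one of the input, V5 IP or GFP IP arrays, where the difference was between -0.69 and -0.79, nor with normexp (-0.69), the deposited values (-0.62), median centring (-0.64) or no filter (-0.74). With the slide as a block it passed in both tag IPs (adjusted p = 0.0198 and 0.0159). The V5 IP difference from the input also passed with quantile normalization (-1.003, adjusted p = 0.0322). Against the mock IP the differences were -0.42 and -0.44, close to the medians over all genes of -0.44 in each comparison.

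The scaffold genes were not higher in the tag IPs by the probes that stand for them. Sin3a, read by 1 probe, was at 1.94 and 1.86 in the input, 2.39 and 2.12 in the mock IP, 1.10 and 1.31 in the V5 IP, and 1.06 and 1.18 in the GFP IP. Every tag IP array was below every input and mock array. The difference from the mock IP was -1.05 ± 0.23 for the V5 IP and -1.13 ± 0.23 for the GFP IP. Against the input Sin3a differed by -0.70 in the V5 IP (adjusted p = 0.0579) and fell by 0.78 in the GFP IP (adjusted p = 0.0362). With the slide as a block both passed (adjusted p = 0.0290 and 0.0172). The V5 IP difference from the input also passed with quantile normalization (-0.83, adjusted p = 0.0244). The GFP IP call against input did not hold without any one of the input, V5 IP or GFP IP arrays (-0.72 to -0.84), nor with normexp (-0.69), the deposited values (-0.64), median centring (-0.68) or no filter (-0.78). Against the mock IP the V5 IP call was lost with normexp (-0.98), with 2 groups per fit or without either input array (-1.05), mock replicate 1 (-0.91) or V5 replicate 1 (-0.94), and the GFP IP call with normexp (-1.13) or without GFP replicate 1 (-1.07).

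Sin3b, the other scaffold, gave unlike values by probe. Its brightest probe, A_52_P57526, read 7.77 and 7.56 in the input, 7.96 and 7.23 in the mock IP, 7.28 and 6.81 in the V5 IP, and 7.17 and 6.82 in the GFP IP. The mock range covered the input values and overlapped with the V5 IP. The tag IPs differed from the input by -0.62 ± 0.32 (adjusted p = 0.195) and -0.67 ± 0.32 (adjusted p = 0.153), which passed with the slide as a block (adjusted p = 0.0454 and 0.0318). With quantile normalization both passed too (-0.832, adjusted p = 0.01655, and -0.834, adjusted p = 0.01437).

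The second Sin3b probe, A_51_P159552, was higher in every IP, the mock included. The array assigns both this probe and the brightest one to cDNA clone records. It read 3.16 and 3.18 in the input, 5.40 and 4.45 in the mock IP, 5.53 and 4.86 in the V5 IP, and 5.64 and 5.04 in the GFP IP. The input arrays lay below all 6 IP arrays, and the 3 kinds of IP overlapped. The difference from the input was 2.02 ± 0.40 in the V5 IP (adjusted p = 0.0119), 2.17 in the GFP IP (adjusted p = 0.00794) and 1.76 in the mock IP (adjusted p = 0.0409). From the mock IP the tag IPs differed by 0.26 and 0.41. The calls against input did not hold without either input array (2.01 and 2.04 for the V5 IP, 2.16 and 2.18 for the GFP IP) or without replicate 1 of the IP (1.69 for the V5 IP, 1.87 for the GFP IP, 1.28 for the mock IP). The mock IP call was also lost without either input array (1.75 and 1.77) or either GFP IP array (1.76 in both), and with normexp (1.85). Nor did it hold with no filter or with 2 groups per fit (1.76 in both). The remaining Sin3b probe, the only one assigned to a RefSeq transcript record, was not well above background on any array. Where the kept probes were averaged, Sin3b differed from the input by 0.70 (adjusted p = 0.189) and 0.75 (adjusted p = 0.152) in the tag IPs, a sign opposite to that of the brightest probe.

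Sap130, a large accessory subunit, fell in both tag IPs against the input. Its brightest probe read 2.75 and 3.03 in the input, 2.13 and 2.36 in the mock IP, 1.55 and 2.13 in the V5 IP, and 1.54 and 1.91 in the GFP IP. The tag IPs lay below the input on each slide, at -1.20 and -0.897 for the V5 IP and at -1.21 and -1.12 for the GFP IP. The fitted differences were -1.05 ± 0.29 (adjusted p = 0.0327) and -1.16 ± 0.29 (adjusted p = 0.0200). The mock IP lay between them and the input, at -0.65 from the input (adjusted p = 0.161; 0.0398 with the slide as a block). The tag IPs differed from the mock IP by -0.40 and -0.51, and the V5 IP overlapped with the mock IP. The calls against input did not hold without input replicate 1 (-1.19 and -1.30) or input replicate 2 (-0.91 and -1.02), nor without replicate 1 of the IP (-0.76 and -0.98), nor with normexp (-0.86 and -1.08), and in the V5 IP not without the filter (adjusted p = 0.0648).

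The second Sap130 probe, assigned to a cDNA clone record and much dimmer, differed in the same direction. It read -1.52 and -1.58 in the input, -3.69 and -2.75 in the mock IP, -4.90 and -2.90 in the V5 IP, and -4.40 and -2.94 in the GFP IP. Slide 1 held the lower value in each IP, and the IP groups overlapped. Its difference from the input was -2.35 ± 0.72 in the V5 IP (adjusted p = 0.0482), -2.12 in the GFP IP (adjusted p = 0.0599) and -1.67 in the mock IP (adjusted p = 0.153). The V5 IP call held in 6 of 15 alternatives. It was lost without V5 replicate 1 (-1.36), without either input array (-2.33 and -2.39) or either mock array (-2.35), and with normexp (-1.66), quantile normalization (-2.21), no filter or 2 groups per fit (-2.35). The GFP IP difference passed in 5 of 15, and that of the mock IP with the slide as a block (adjusted p = 0.0258).

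Sap18, the accessory subunit with a ubiquitin-like fold, showed no difference past the threshold by any of its 4 kept probes at the main setting. The brightest read 4.53 and 4.47 in the input, 4.43 and 3.89 in the mock IP, 4.36 and 3.81 in the V5 IP, and 4.30 and 3.75 in the GFP IP. Replicate 2 was the lower array in each group, and the 3 kinds of IP overlapped. Against the input the differences were -0.41 ± 0.32 (adjusted p = 0.372) and -0.48 ± 0.32 (adjusted p = 0.290) in the tag IPs. The 95% interval of the V5 IP difference ran from -1.16 to 0.33. The other 3 probes differed from the input by -0.56 to 0.20 in the V5 IP and by -0.41 to -0.13 in the GFP IP. With quantile normalization the brightest probe passed in both tag IPs against input (-0.76, adjusted p = 0.0345, and -0.83, adjusted p = 0.0224), and with the slide as a block probe A_51_P386031 passed in the mock IP against input (-0.68, adjusted p = 0.0475).

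Ing1 lay above its input level in the tag IPs by both of its probes, without passing the threshold at the main setting. ING1 is a reader of methylated histone tails and a candidate tumour suppressor. The brighter probe, A_52_P598, read 3.81 and 3.87 in the input, 3.88 and 4.14 in the mock IP, 4.80 and 4.42 in the V5 IP, and 4.87 and 4.41 in the GFP IP. The other read 3.40 on both input arrays, 3.37 and 3.41 in the mock IP, 4.30 and 3.78 in the V5 IP, and 4.35 and 3.78 in the GFP IP. By either probe all 4 tag IP arrays exceeded all input and mock arrays. The brighter probe differed from the input by 0.77 ± 0.27 (adjusted p = 0.0672) and 0.80 ± 0.27 (adjusted p = 0.0542), and with the slide as a block both passed (adjusted p = 0.0324 and 0.0259). Both also passed with the deposited values (0.93, adjusted p = 0.0364, and 0.97, adjusted p = 0.0271). The GFP IP difference passed with median centring as well (0.905, adjusted p = 0.0453). From the mock IP the brighter probe differed by 0.60 and 0.63. The other probe differed from the input by 0.64 (adjusted p = 0.143) and 0.66 (adjusted p = 0.121).

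Ing2 gave the widest disagreement between probes of one gene among the members. ING2 brings the Sin3 complex to methylated histone tails through its PHD finger. The brightest probe, A_51_P503751, read 3.25 and 3.23 in the input, 2.98 and 3.02 in the mock IP, 2.94 and 2.85 in the V5 IP, and 3.03 and 2.85 in the GFP IP. It differed from the input by -0.35 ± 0.22 (adjusted p = 0.267) and -0.30 ± 0.22 (adjusted p = 0.321), and a second probe, A_52_P324530, differed by -0.39 (adjusted p = 0.211) and -0.33 (adjusted p = 0.275). On both probes the groups lay within a narrow band, with both input arrays above every IP array, the mock included.

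The third Ing2 probe, A_52_P266459, which the array assigns to the same transcript record as the other 2, rose in both tag IPs. It read -1.43 and -1.57 in the input, -1.34 and -1.17 in the mock IP, 2.20 and 1.36 in the V5 IP, and 2.11 and 1.498 in the GFP IP. The tag IP arrays stood far above the input and mock arrays, which lay close together. The difference from the input was 3.28 ± 0.35 in the V5 IP (adjusted p = 0.00270), with 3.62 and 2.93 on slides 1 and 2. In the GFP IP it was 3.30 ± 0.35 (adjusted p = 0.00233), with 3.54 and 3.06, and in the mock IP 0.24 (adjusted p = 0.646). From the mock IP the tag IPs differed by 3.03 and 3.06, about as much as Sap30 did. The probe passed against the input in both tag IPs under each of 15 alternatives, between 2.78 and 3.70.

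The value given for Ing2 as a gene therefore depends on the probe. Where the 3 probes were averaged, Ing2 was higher than the input by 0.84 in the V5 IP (adjusted p = 0.0391) and 0.89 in the GFP IP (adjusted p = 0.0290), opposite in sign to the brightest probe. The difference between the probes was not itself tested, and the probes' places on the transcript were not analysed here.

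**Figure D2:**
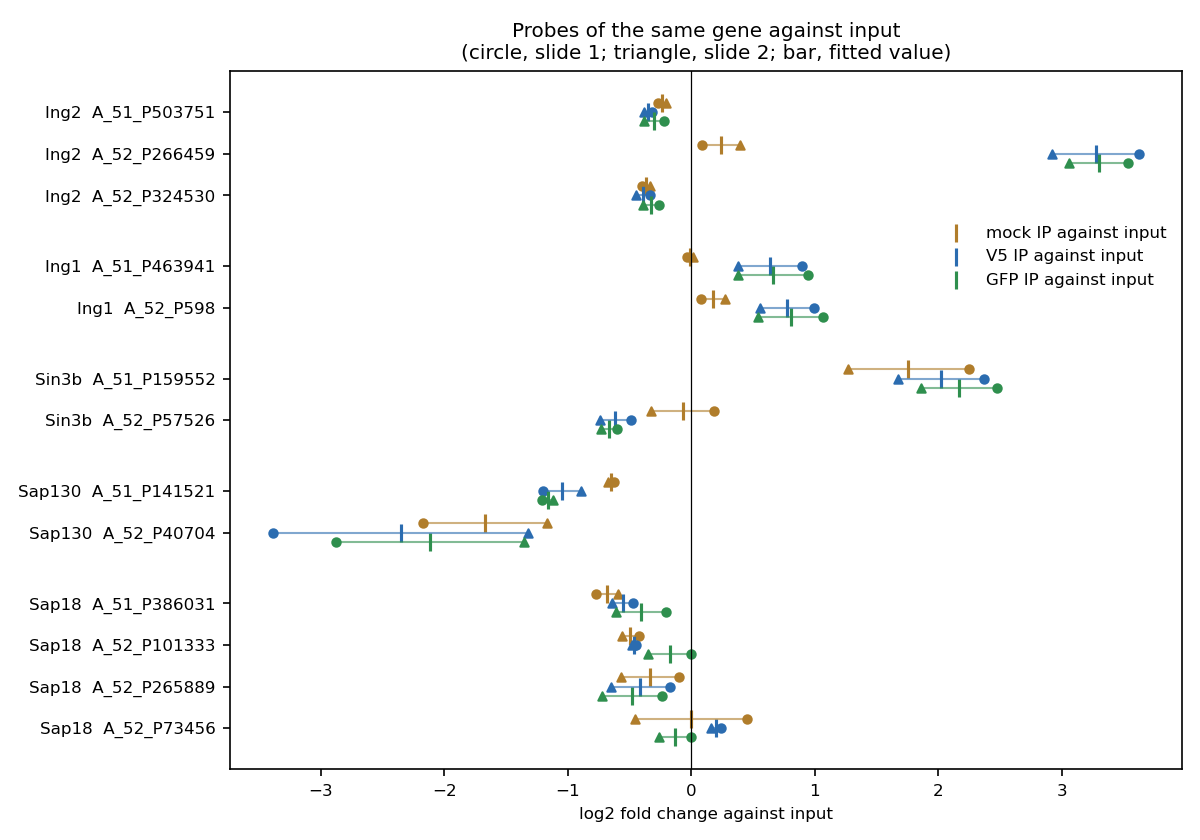
Log2 fold change against input for each kept probe of the 5 members with over 1 kept probe, in the mock IP, V5 IP and GFP IP; circles are slide 1, triangles slide 2, and vertical bars the fitted value. Ing2 probe A_52_P266459 lies near 3.3 in both tag IPs and at 0.24 in the mock IP while the other 2 Ing2 probes lie just below 0, and Sin3b probe A_51_P159552 is high in all 3 kinds of IP.

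Suds3, the accessory subunit that links SIN3 to the deacetylases, was read by 2 probes outside the name rule. The brighter read 3.67 and 3.52 in the input, 4.32 and 4.12 in the mock IP, 4.15 and 3.73 in the V5 IP, and 4.05 and 3.63 in the GFP IP. The other read 1.32 on both input arrays, 2.25 and 2.14 in the mock IP, 2.53 and 1.97 in the V5 IP, and 2.47 and 1.96 in the GFP IP. By either probe both mock arrays were above both input arrays. For the brighter probe the GFP IP arrays lay below both mock arrays and the V5 IP overlapped with them, and for the other the tag IP arrays lay on both sides of the mock arrays. The brighter probe differed from the mock IP by -0.28 and -0.38, and from the input by 0.34 (adjusted p = 0.373) and 0.25 (adjusted p = 0.518) in the V5 and GFP IPs and by 0.62 in the mock IP (adjusted p = 0.151). The other differed from the input by 0.93 in the V5 IP (adjusted p = 0.0498), 0.90 in the GFP IP (adjusted p = 0.0502) and 0.87 in the mock IP (adjusted p = 0.0864), and from the mock IP by 0.06 and 0.02. Alternatives were not run for the Suds3 probes.

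**Figure D3:**
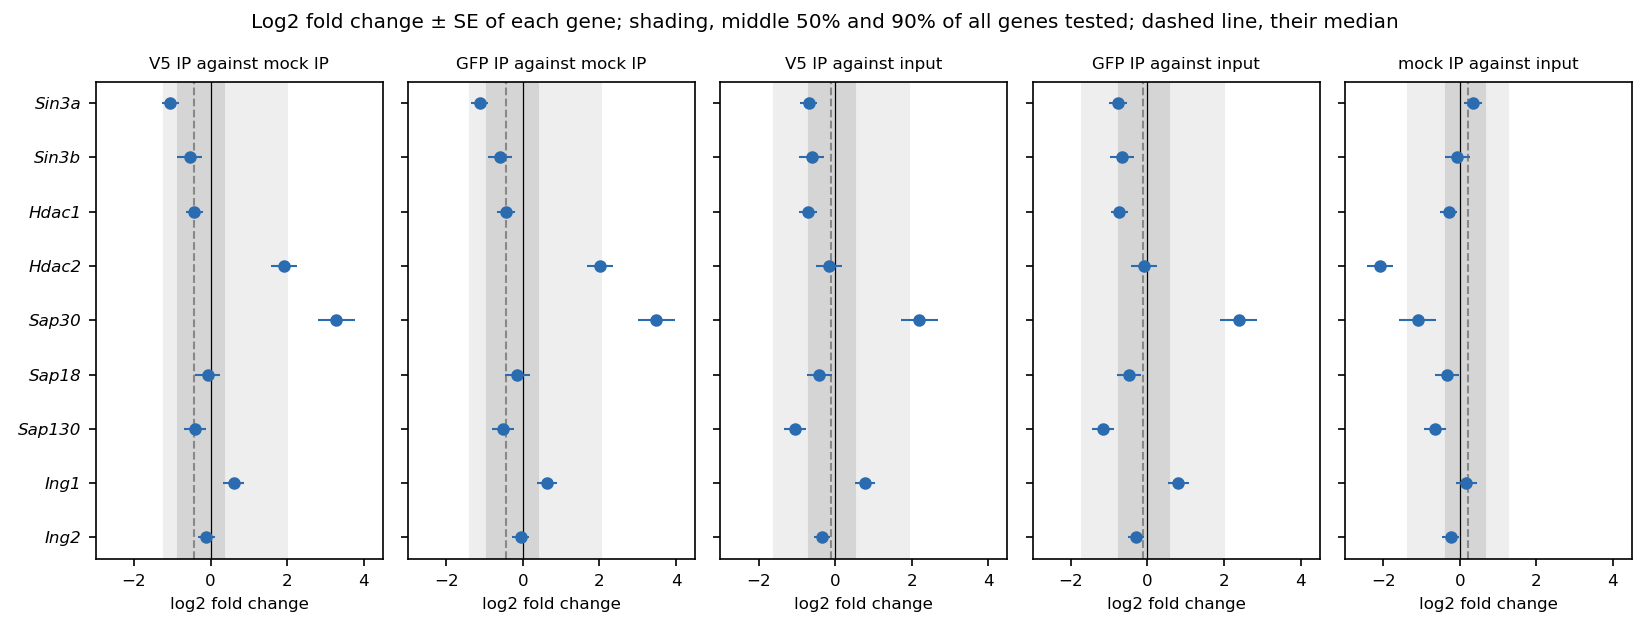
Log2 fold change with its standard error for the 9 genes in 5 comparisons; grey shading holds the middle 50% and 90% of all 19020 genes tested, and the dashed line is their median. Sap30 lies outside the shading in the 4 comparisons of a tag IP, Hdac2 lies outside it in the mock IP against input, and most other members lie below 0 against input.

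Counted over the 9 genes, the V5 IP against the mock IP had 2 members higher (Sap30 and Hdac2) and 1 lower (Sin3a), where 14.6% of all genes were higher and 21.4% lower. The GFP IP against the mock IP had the same 2 higher and the same 1 lower, with 16.3% and 26.5% of all genes. Nothing is read from these counts, since the choice of members used this comparison. The V5 IP against input had 1 higher (Sap30) and 1 lower (Sap130), where 14.2% and 13.7% of all genes were. The GFP IP against input had 1 higher (Sap30) and 3 lower (Sap130, Sin3a and Hdac1), where 16% and 16.9% were. The mock IP against input had none higher and 1 lower (Hdac2), where 6.64% and 4.09% were. With the slide as a block more genes passed altogether. The V5 IP against input then had 2 members higher and 4 lower (20.4% and 24.3% of all genes), the GFP IP against input 2 and 4 (22% and 26.9%), and the mock IP against input 0 and 3 (21.4% and 13.4%). The split over all genes also moved with the scaling: in the V5 IP against mock IP 2777 were higher and 4067 lower, and with centring on the median 2848 and 1574, with the deposited values 3061 and 1524, and with normexp 939 and 10. In the GFP IP against mock IP the numbers were 3104 and 5045, and then 3360 and 2905, 3519 and 2803, and 1168 and 524. Against input, normexp turned 2692 higher and 2614 lower into 1157 and 308 in the V5 IP, and 3047 and 3210 into 1196 and 461 in the GFP IP. In the mock IP 1263 and 777 became 5 and 0 with normexp, and 819 and 850 with centring.

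The median over the 9 genes was -0.11 and -0.14 in the V5 and GFP IPs against the mock IP, where the medians over all genes were -0.44 in both. Against the input it was -0.41 and -0.48, where all genes had -0.11 in both. The comparisons share the mock, input and tag IP arrays and are not separate evidence of one another. Over the 17 kept probes, 3 were higher and 1 lower in the V5 IP against mock IP (15.4% and 17.1% of all 28078 probes) and in the GFP IP against mock IP (17.2% and 22.5%). Against input 3 were higher and 2 lower in the V5 IP (13.9% and 13.6%), 3 were higher and 3 lower in the GFP IP (15.6% and 16.7%), and 1 was higher and 1 lower in the mock IP (5.37% and 5%). The 3 probes higher against input in the tag IPs were those of Sap30, Ing2 (A_52_P266459) and Sin3b (A_51_P159552).

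The V5 and GFP IPs, which pull on different parts of the same tag, were set against each other. No member passed, and no gene of 19020 did in limma at an adjusted p of 0.05, where 190 genes had an unadjusted p under 0.05 and no member did. The members' differences ran from -0.19 (Sap30) to 0.11 (Sap130). The 95% interval for Sap30 was -1.32 to 0.93, and those of the other members lay within -0.87 and 0.81. These intervals come from the fit without the slide, although the replicate differences of the V5 and GFP IPs correlated at 0.782. For Sap30 the difference was -0.18 on slide 1 and -0.21 on slide 2. The intervals therefore do not give the smallest difference that arrays paired by slide could show. With the slide as a block no member passed either.

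The other genes of the pathway were taken from lists of related subunits and complexes. Of the other Sin3 subunits, 12 of 13 were measured, and 4 were higher and 2 lower in each tag IP against input (of all genes, 14.2% and 13.7% in the V5 IP, 16% and 16.9% in the GFP IP). Rbbp4, a histone chaperone shared with other complexes, rose by 2.62 ± 0.29 in the V5 IP (adjusted p = 0.00222) and 2.70 in the GFP IP (adjusted p = 0.00178). Sinhcaf, a subunit of the Sin3 complex of embryonic stem cells, rose by 2.41 ± 0.37 (adjusted p = 0.00464) and 2.62 (adjusted p = 0.00308). Sap30bp, which encodes a SAP30-binding protein, fell by 1.34 ± 0.26 (adjusted p = 0.00938) and 1.31 (adjusted p = 0.00872), and Brms1, a SIN3 subunit related to metastasis suppression, fell by 0.94 (adjusted p = 0.0336) and 1.04 (adjusted p = 0.0208). The remaining higher genes were Arid4a, by 1.29 and 1.27, and Morf4l1, by 1.476 and 1.505; with its probes averaged Arid4a was at 0.17 and 0.13 and did not pass. In the mock IP against input none of the 12 passed in either direction. The list's median was 0.24 and 0.07 against input, beside -0.11 over all genes in both, and 0.49 and 0.42 against the mock IP.

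The Max network holds SIN3-binding repressors (the Mxd proteins, Mxi1 and Mnt) and their dimer partners and relatives. Its genes had 3 of 9 higher and none lower in each tag IP against input, and 3 of 9 higher in the mock IP too, where 14.2%, 16% and 6.64% of all genes were higher. Mlxip rose by 0.86 in the V5 IP (adjusted p = 0.0312) and 1.18 in the GFP IP (adjusted p = 0.00886), and Mxi1 by 0.94 (adjusted p = 0.0468) and 0.997 (adjusted p = 0.0336). Mga, at -0.76 and -0.73, and Mlx, at -0.29 and -0.13, did not pass. Mlxip was also higher in the mock IP against input, by 0.95, a call that held in 3 of 16 alternatives.

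Of the other histone deacetylases, 2 of 9 were higher and none lower against input (14.2% and 16% of all genes were higher), namely Hdac4, by 0.91 (adjusted p = 0.0208) and 1.07 (adjusted p = 0.0101), and Hdac9, by 1.77 (adjusted p = 0.00311) and 1.80 (adjusted p = 0.00265). Hdac9 was dim, its probe being well above background on only 1 of the mock arrays, and with normexp its differences from input were 0.37 and 0.65 without passing. Hdac7 and Hdac10 differed from input by -0.02 and -0.21 in the V5 IP. In the mock IP against input 4 of these 9 genes were higher and 1 lower (6.64% and 4.09% of all genes), and against the mock IP 5 were lower in each tag IP (21.4% and 26.5%), a count that ranged from 0 to 5 over the alternatives. Among the other Ing genes, Ing5 rose by 0.81 in the GFP IP (adjusted p = 0.0290) but was at -0.71 where its probes were averaged. Ing3 (0.60 and 0.57) and Ing4 (-0.46 and -0.50) did not pass against input. Ing3 was lower in the mock IP than in the input (log2 difference -1.22, adjusted p = 0.0454), and its tag IPs were 1.81 and 1.79 above the mock IP, a pattern like that of Hdac2. The mock IP call of Ing3 held in 6 of 16 alternatives.

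**Figure D4:**
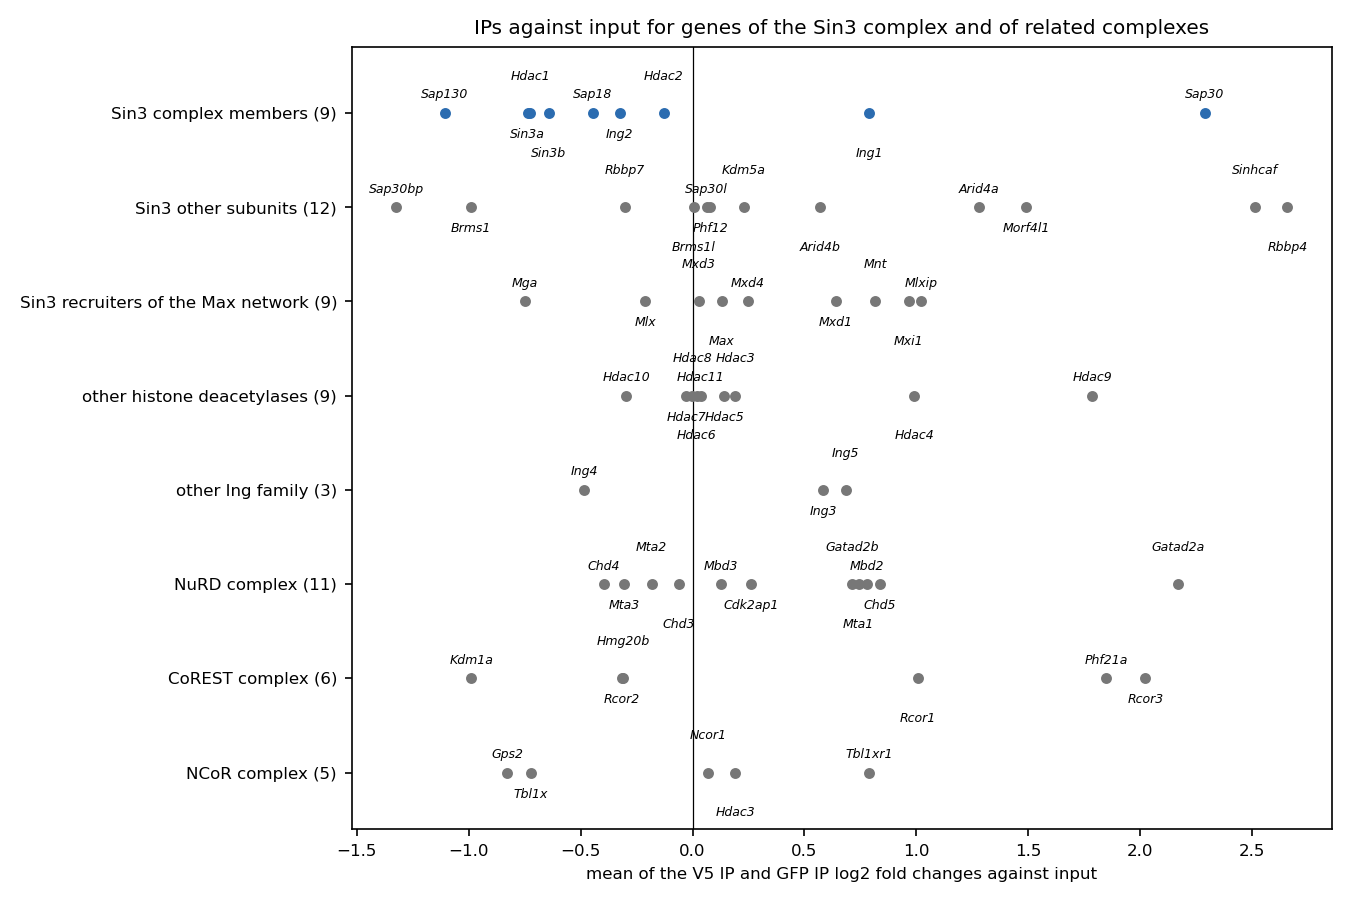
Mean of the V5 IP and GFP IP log2 fold changes against input for the genes of the Sin3 complex (blue) and of 7 lists of related genes (grey), with the number plotted in brackets. Rbbp4, Sinhcaf, Sap30, Gatad2a and Rcor3 lie at or above 2, and each row that holds one of them also holds genes below 0.

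The other deacetylase complexes are set against the same shares of all genes, 14.2% higher and 13.7% lower in the V5 IP and 16% and 16.9% in the GFP IP. Of 11 NuRD genes 1 was higher in the V5 IP and 2 in the GFP IP against input, led by Gatad2a, a zinc-finger subunit, at 2.11 (adjusted p = 0.00638) and 2.23 (adjusted p = 0.00447). Chd5 (0.72 and 0.95), Chd4 (-0.27 and -0.52) and Mta3 (-0.29 and -0.32) did not pass. Of 7 CoREST genes 3 were higher and 1 lower in each. Among the higher ones, Phf21a was at 1.86 and 1.84. Where its probes were averaged it was at -0.24 and -0.15 and did not pass. Rcor3, a CoREST scaffold, rose by 2.02 in both (adjusted p = 0.00690 and 0.00584). Kdm1a, the histone demethylase of the complex, fell by 1.05 (adjusted p = 0.0122) and 0.92 (adjusted p = 0.0163), and Rcor2 was at -0.30 and -0.34. Kdm1a was lower in the mock IP against input too, at -1.06, a call that held in 8 of 16 alternatives. Of 6 NCoR complex genes none was higher and 1 lower in each, Tbl1x in the V5 IP (-0.82, adjusted p = 0.0489) and Gps2 in the GFP IP (-0.94, adjusted p = 0.0290). Tbl1xr1 (0.80 and 0.78) did not pass against input.

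Of 17 calls of list genes in the V5 IP against input, 3 held in all 16 alternatives, Rbbp4 and Sinhcaf among them. In the GFP IP 4 of 19 did, among them Rbbp4, Sinhcaf and Gatad2a. Without one or the other input array 12 and 13 of these calls were lost, with sizes then between 0.70 and 2.15 in the V5 IP and between 0.76 and 2.15 in the GFP IP. Of 13 such calls in the mock IP against input 0 held in all alternatives, and 13 were lost without an input array, with sizes then between 0.90 and 1.64.

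Over the 8 arrays the genes whose levels followed Sap30 most closely were Hacd3 (Pearson r = 0.997), Tex30 (0.996), Trpv3 (0.995), Cers6 (0.995) and Oat (0.995). These correlations describe the 8 arrays, which share slides and groups, and the genes were picked from all 19020 for the size of r.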

How the data were processed

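Each of the 8 Agilent arrays (1 colour, Cy3) was read from the scanner file deposited by the authors, whose intensity values had been background-subtracted by Agilent Feature Extraction 9.1.3.1, per the file headers. The authors' deposited signal table held the same arrays: 45018 of 45018 entries were matched to spots, with median ratios of 1 to 1.0002. A quality score per spot, in the files as deposited by the authors with its making not stated, served only for this match. Here spots of a probe were averaged without outlier flags, and log2 values were set relative to each array's 75th percentile. Of 41174 gene probes, 28078 were kept, those with a value on every array that the scanner called well above background on both arrays of some group. The kept probe with the highest mean stood for a gene. Names came from RefSeq by accession or symbol where they matched, for 32703 probes, and otherwise from the file.

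All 8 arrays were fitted with limma 3.58.1 in R 4.3.3 (group means, lmFit and eBayes), with Benjamini-Hochberg adjustment over 19020 genes, or over 28078 probes, and a call at an adjusted p under 0.05. In simulated data for the V5 IP against the mock IP, 68 of 100 genes changed by 2 log2 units and 3 of 100 changed by 1 were called. The other 18820 genes were left unchanged there, with noise drawn separately for each array. In the data 2777 genes were higher and 4067 lower, which loosens the adjusted threshold, so these shares do not carry over to the data. Members and lists were chosen with earlier results of these data known. Every probe of the members is described; from each list, 2 genes are named from the top and 2 from the bottom of the order by mean tag IP difference from input, and genes named beyond these were chosen after their values were seen. 2 genes of the lists count in the list totals and are not reported by name here or plotted. Alternatives were normexp (offset 50), the deposited table, quantile normalization, median centring, no filter, 2 groups per fit, the mean of probes, the replicate number as a block, and each array left out.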

Additional observations from a re-analysis of the deposited data

How the results depend on the processing

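Each group has 2 arrays, which limits the precision of every value. Causes of the changes below were not tested unless the alternative itself removes arrays or genes. Of 1320 single values of members under alternatives, 1147 kept their sign and their side of the threshold, 75 lost the threshold, 35 came to pass it and 67 turned sign. None of these 67 had passed before. Those of Ing2 with its probes averaged, in both tag IPs, are also among the 35. Part of this agreement was fixed in advance. Leaving out an array of a group not compared, fitting only 2 groups or adding the replicate block left the estimate as it was and moved only its p. The same holds for the mean of probes where a gene has a single kept probe, and for these probes without the filter. In the comparisons with the mock IP the mean of probes turned Ing2 to 0.967 and 1.012 and Sap18 to 0.069 and 0.081 in the V5 and GFP IPs. Median centring moved the median over all genes from -0.44 to -0.29 (V5 IP against mock IP), and normexp moved that of the GFP IP against mock IP to 0.02 and that of the V5 IP against input from -0.11 to -0.47.

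Percentages in brackets are the shares of all genes tested under the same alternative. With normexp the members higher in the V5 IP against mock IP were 1 (4.94%) and those lower 0 (0.0526%). In the GFP IP against mock IP they were 1 (6.14%) and 0 (2.75%). Those lower against input were 0 in the V5 IP (1.62%), 0 in the GFP IP (2.42%) and 0 in the mock IP (0%). With the authors' deposited values, 2 were higher against input in the V5 IP (16.2%) and 2 in the GFP IP (18.6%). In the GFP IP 1 was lower (13.2%). With quantile normalization 5 were lower against input in the V5 IP (16.6%) and 5 in the GFP IP (19.1%). With median centring 2 were higher (16.9%) and 1 lower (13.9%) in the GFP IP against input. Without a filter 0 were lower against input in the V5 IP (6.21%), 1 in the GFP IP (8.37%) and 0 in the mock IP (0.249%). With only the 2 groups compared, 0 were lower in the V5 IP against mock IP (2.06%) and 0 in the mock IP against input (0.105%). With the mean of a gene's probes 2 were higher against input in the V5 IP (11.3%) and 2 in the GFP IP (13%).

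The replicate number marks the slide in the headers, and the differences between the 2 replicates correlated between groups by 0.313 to 0.782. With the replicate block 2 members were lower in the GFP IP against mock IP (40.2% of all genes). Against input 2 were higher (20.4%) and 4 lower (24.3%) in the V5 IP. In the GFP IP 2 were higher (22%), and in the mock IP 3 were lower (13.4%). The share of all genes called also changed where an array was left out.

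Without 1 array at a time, the members higher in the V5 IP against mock IP were 1 to 2 and those lower 0 to 1, and in the GFP IP against mock IP 0 to 1 were lower. Against input 0 to 1 were higher and 0 to 3 lower in the V5 IP, 0 to 1 higher and 0 to 3 lower in the GFP IP, and 0 to 1 lower in the mock IP.

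Against input, with the mean of probes Sin3b was at 0.703 (V5 IP), 0.751 (GFP IP) and 0.844 (mock IP) against input, and Ing2 at 0.845 and 0.891 in the tag IPs, which passed. Hdac2 against input was 0.029 in the V5 IP and 0.095 in the GFP IP with the deposited table, and in the GFP IP 0.006 with quantile normalization and 0.011 with median centring. Sap18 probe A_52_P73456 against input was -0.836 in the V5 IP with normexp, and in the GFP IP 0.009 with the deposited table and 0.114 with quantile normalization. In the mock IP against input Sin3b was 0.203 and Ing1 probe A_51_P463941 was 0.154 with normexp, and Ing1 was -0.034 with quantile normalization. Without 1 array at a time, Hdac2 against input ranged from -0.416 to 0.086 (V5 IP) and -0.341 to 0.161 (GFP IP), and Sap18 probe A_52_P73456 from -0.347 to 0.078 (GFP IP) and -0.534 to 0.531 (mock IP). In the mock IP against input Sin3b ranged from -0.436 to 0.296 and Ing1 probe A_51_P463941 from -0.035 to 0.010.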
